A study of Mus musculus with 96 samples.

Results

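Reduced representation bisulfite sequencing (RRBS) of the stromal vascular fraction was compared between irradiated and untreated mice, and the regions that the authors listed for this radiation contrast are described here. All 5493 rows of the authors' deposited table for the contrast were taken, out of 35198 rows in the 6 bisulfite tables of the series. The stromal vascular fraction is the mixed non-adipocyte part of fat tissue, which holds preadipocytes, fibroblasts, endothelial and perivascular cells and leukocytes. Per the labels, the C57Bl/6 mice formed 4 groups, with 4 samples of irradiated mice on chow, 7 of irradiated mice on a high fat diet, 6 of untreated control mice on chow and 7 of untreated control mice on a high fat diet, which makes 24 of the 96 samples of the series. No source used here gives the radiation dose, the time between irradiation and collection, the sex or the age, or says whether each sample came from 1 animal.

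In the authors' deposited table, each row is a region of neighbouring CpG sites with 2 medians over its sites, that of the p-value and that of the methylation difference between a group 1 and a group 2. Differences are written in percentage points, and a positive value means that group 1 was higher. Neither the header nor the labels say whether group 1 is the irradiated or the untreated side, so no difference below is tied to irradiation or to its absence. The group levels were inspected to read the sign of the difference and to compare group 1 across contrasts, and were not used otherwise. The table gives 0 columns of single samples. No spread between mice can therefore be shown, no test could be run, and the depth behind each difference is unknown. Because the rows are regions already chosen for a small p-value in this contrast, counts of rows describe the list and not the genome. Bisulfite data hold no transcript levels, so the labelled tissue could not be checked against markers, and a change in the mix of cell types cannot be told apart from a change within cells.

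DNA methylation in mammals is laid down mainly on cytosines followed by guanine, by the maintenance enzyme Dnmt1 and the de novo enzymes Dnmt3a and Dnmt3b. CpG islands at the promoters of housekeeping and developmental genes are normally almost free of methylation, while CpGs in introns and between genes are mostly methylated. The protocol cuts DNA with MspI at CCGG, so the fragments read come largely from CpG-rich promoters. In fat tissue, methylation of regulatory DNA differs between preadipocytes, adipocytes and immune cells.

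The promoter of Tnpo2, which encodes a nuclear import receptor of the transportin family, is shown because 9 listed regions lie in one RefSeq promoter window of 300 bases (chr8:85036936-85037235, plus strand, GRCm38.p6). Capitals in the first line mark the 4 regions in which group 1 was higher by 36 to 39 points, and capitals in the second line mark the 5 regions with a difference under 1 point. A CpG that a region begins or ends in is shown whole.
Tnpo2, higher by 36 to 39 points: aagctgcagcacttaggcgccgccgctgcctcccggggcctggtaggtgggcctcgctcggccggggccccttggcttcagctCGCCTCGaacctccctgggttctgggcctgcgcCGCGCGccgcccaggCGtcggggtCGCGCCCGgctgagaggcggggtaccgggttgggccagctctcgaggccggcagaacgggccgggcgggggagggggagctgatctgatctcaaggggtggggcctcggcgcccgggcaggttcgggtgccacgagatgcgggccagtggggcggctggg
Tnpo2, under 1 point: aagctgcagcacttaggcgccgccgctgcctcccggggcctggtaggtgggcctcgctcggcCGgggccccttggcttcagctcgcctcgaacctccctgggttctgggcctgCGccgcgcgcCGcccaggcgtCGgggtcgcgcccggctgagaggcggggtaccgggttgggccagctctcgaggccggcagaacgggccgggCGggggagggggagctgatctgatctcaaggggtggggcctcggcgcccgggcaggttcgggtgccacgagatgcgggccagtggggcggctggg
The promoter windows of Med16, a subunit of the Mediator complex (chr10:79908889-79909188, minus strand), and of Eif1, a factor in start codon selection (chr11:100319699-100319998, plus strand), are shown because their listed regions join a large difference with a p-value at the numerical floor. Capitals mark the listed region.
Med16: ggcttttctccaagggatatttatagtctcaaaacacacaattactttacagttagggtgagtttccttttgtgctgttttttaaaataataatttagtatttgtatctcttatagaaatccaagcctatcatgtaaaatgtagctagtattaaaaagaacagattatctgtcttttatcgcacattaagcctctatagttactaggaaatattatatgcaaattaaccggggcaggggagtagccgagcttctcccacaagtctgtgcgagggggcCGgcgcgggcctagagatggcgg
Eif1: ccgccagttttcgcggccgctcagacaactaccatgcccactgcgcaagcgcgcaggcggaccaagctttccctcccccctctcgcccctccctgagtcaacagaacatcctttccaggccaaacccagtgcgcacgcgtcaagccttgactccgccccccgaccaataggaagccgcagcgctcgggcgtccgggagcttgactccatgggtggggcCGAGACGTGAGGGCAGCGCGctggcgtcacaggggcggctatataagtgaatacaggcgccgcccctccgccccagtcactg
The Med16 window holds 8 CpGs and the listed region is 1 of them, next to the gene start. The Eif1 window holds 28 CpGs.

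The list was made mostly of promoter regions with very small differences. In all, 4702 of the 5493 regions (85.6%) were annotated by the authors within 1 kb of a gene start, and the median region was 42 bases wide, with 841 regions of 1 base. Group 1 was higher in 3334 regions (60.7%) and lower in 2159. The absolute difference was at least 10 points in 1684 regions (30.7%), of which 1381 were higher and 303 lower in group 1. Over the whole list the median difference was 0.165 points, and 3220 regions (58.6%) differed by under 1 point.

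The differences fell into separate size classes, whose limits were set after the values were seen. Between 1 and 10 points lay 589 regions (10.7%), 269 higher and 320 lower. A narrow range from 36 to 39 points held 972 regions (17.7%), all higher in group 1 because the range is positive. The other 409 regions with group 1 higher by 10 points or more (7.45%) had a median of 29.7 points and reached 63.4. The 303 regions lower by 10 points or more (5.52%) had a median of -19.2 points and reached -49.997. Without the narrow range, 2362 of 4521 regions (52.2%) were higher. This share is fixed by the positive range, since taking out any other 972 higher regions would give the same value.

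**Figure D1:**
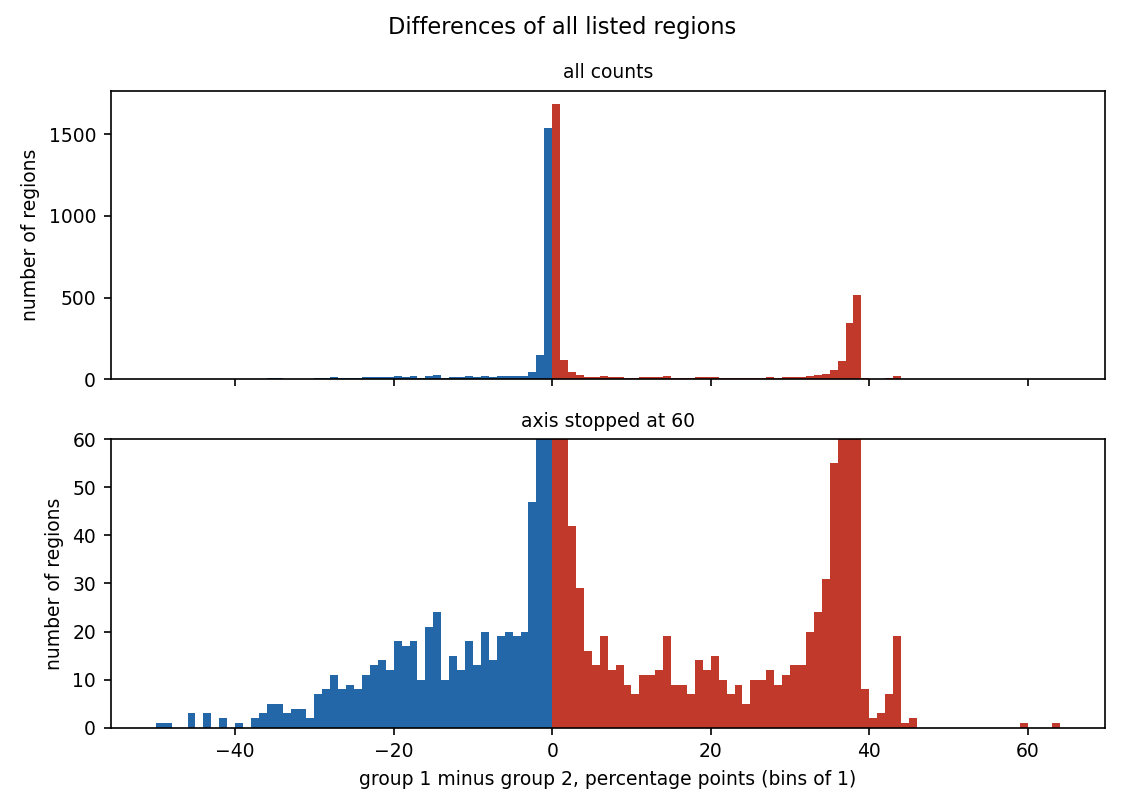
Number of listed regions (y axis) by difference, group 1 minus group 2, in percentage points in bins of 1 point (x axis), with positive differences in red and negative ones in blue; the lower panel shows the same counts with the axis stopped at 60. Beside the peak at 0, a narrow peak holds 515 regions between 38 and 39 points, with no matching peak among the negative differences.

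The narrow range had no counterpart on the lower side. Of the 1268 regions with group 1 higher by 20 to 50 points, 861 lay between 37 and 39 points, against 2 of the 140 regions with group 1 lower by 20 to 50 points. The 972 regions of the range came from 837 gene symbols, and 897 of them (92.3%) were within 1 kb of a start. Their median p was 5.57e-10, against 1.45e-05 for regions under 1 point and 0.000287 for regions lower by 10 points or more. What sets a difference so alike across unrelated promoters was not tested.

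Regions further from gene starts were more often large in difference and more evenly divided between the directions. Outside promoters within 1 kb lay 791 regions, of which 422 (53.4%) were higher and 369 lower in group 1. In this set 356 regions differed by at least 10 points, 227 higher and 129 lower, and 270 (34.1%) by under 1 point, against 2950 (62.7%) of the regions within 1 kb of a start. The 20 largest differences on each side of this set, with 1 region per gene symbol, were chosen for naming after the values were seen. Because the rule takes as many regions from each side, the presence of both directions is fixed by it, and the roles below only order the account. The gene given for an intron or intergenic region is the one that the authors' annotation assigns, and it can lie far away. The median of the authors' p-values was 5.62e-05 in this set, against 5.34e-06 within 1 kb of a start. At the single CpGs named from this set below, the authors' p ran from 7.21e-06 at Mir17 to 0.00711 at Slc25a51.

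Among regions assigned to signalling genes, a single intron CpG of the growth factor gene Tgfb3 (chromosome 12, position 86058853) had a difference of 41.7 points in the authors' deposited table. Dlk1, an imprinted gene for a preadipocyte surface protein that inhibits adipogenesis, was assigned a distal region at -53174 bases from its start, with a difference of 39.8 points in that deposited table. Lower in group 1 was a distal region assigned to Crlf2, a receptor chain for the cytokine TSLP, at -27.9 points in the authors' deposited table. Axin2, a feedback inhibitor and target of Wnt signalling, had 39.1 points between 1 and 2 kb from its start, and Tgif2, a homeobox corepressor of the TGF-beta pathway, had 39.6 points in the deposited table.

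For transcription and chromatin regulators, the deposited table gave 43.1 points at a distal region of the forkhead gene Foxd2, 44.9 points at a distal region of the zinc finger gene Zkscan3 and 43.4 points at one of Zmiz2, a transcriptional coactivator. The chromatin remodelling genes Chd7 and Baz1a each had 38.5 points, and the corepressor gene Bcor 38.4 points, in the authors' deposited table. Klf9, a Krüppel-like factor that promotes adipogenesis, had -34.1 points between 1 and 2 kb from its start in the deposited table. Upstream of Mir17, a microRNA gene of a cluster that promotes proliferation, a CpG had -41.9 points in the deposited table.

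Among regions assigned to genes of RNA processing and ribosome assembly, Las1l had the second largest difference of the list, 59.7 points, at a single intron CpG on chromosome X (position 95853064), 94791 bases from the start of the gene in the authors' deposited table. Emg1 had 43.6 points at a single intron CpG, and Pop7, a subunit of ribonuclease P, had 43.4 points, in the deposited table. The difference of 63.4 points at Mir6546 was the largest of the list and lay between 1 and 2 kb from the start (chr1:171065944-171065954) in the authors' deposited table.

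For enzymes, transporters and the cell skeleton, the lowest value outside promoters was -48.0 points at a single intron CpG of Cdc42bpa, a kinase of the actin cytoskeleton (chromosome 1, position 180003338), in the authors' deposited table. Slc48a1, a haem transporter, had -27.2 points at an intron CpG, while Slc25a51, the mitochondrial NAD carrier, had 45.3 points at a distal CpG in the deposited table. Atg5, which is needed to form autophagosomes, had 42.7 points at a CpG between 2 and 3 kb from its start, and Haao, an enzyme of the kynurenine pathway, had 43.5 points in the authors' deposited table. Cep135, a centriole protein, had 38.5 points and Parvg, an actin-associated protein of blood cells, had -31.7 points in the deposited table.

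Among the other lower regions, Ifitm3, an interferon-induced membrane protein that restricts virus entry, had -30.8 points at a CpG between 1 and 2 kb from its start in the authors' deposited table. Dcstamp, a membrane protein needed for fusion of osteoclast precursors, had -31.5 points, and the scavenger receptor gene Scarf2 had -35.9 points in its 3′ UTR, in the deposited table. Unc45b, a myosin chaperone of striated muscle, had -33.3 points in an intron with a p of 5.15e-11, the smallest p among the 20 lower regions, in the authors' deposited table. A distal CpG assigned to Ube3a, an imprinted ubiquitin ligase gene of neurons, had -29.7 points, and Kcne4, a potassium channel subunit, had -33.5 points in the deposited table. The 20 lower regions ran from -48.0 to -27.2 points.

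**Figure D2:**
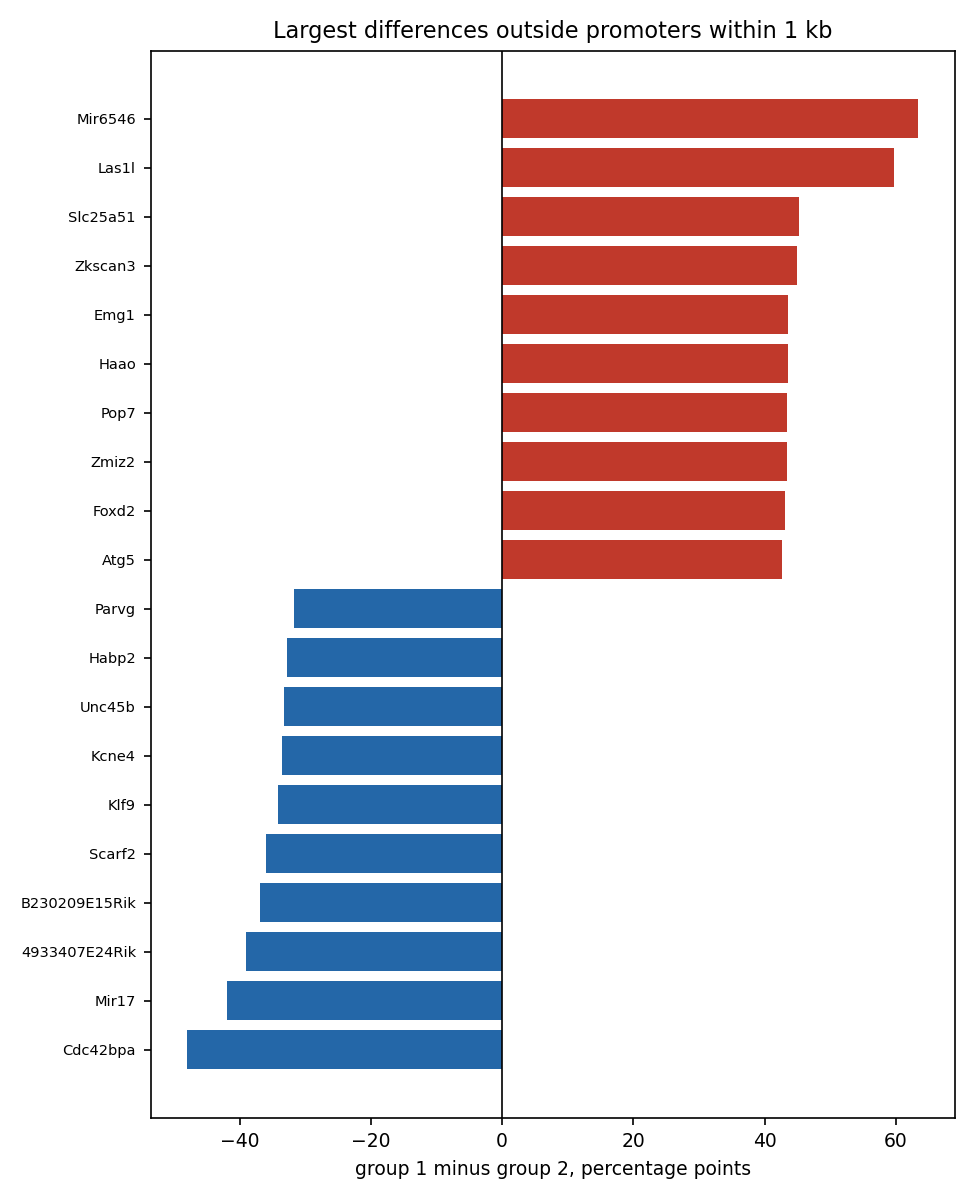
Difference, group 1 minus group 2, in percentage points (x axis) of the 10 largest positive (red) and 10 largest negative (blue) differences among regions outside promoters within 1 kb, with 1 bar per gene symbol. Mir6546 at the top had 63.4 points and Cdc42bpa at the bottom -48.0 points; no error bars are drawn because no values of single samples were used.

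The largest positive differences of the whole list, in promoters and elsewhere, formed a small second cluster. Of the 15 largest, 10 lay between 43 and 44 points, a span that held 19 of the 1268 regions with group 1 higher by 20 to 50 points. In the authors' deposited table, Foxp1, a forkhead transcription factor, had 43.4 points at its promoter (chr6:99028244-99028285). Creb1, a cyclic AMP-responsive activator used early in adipogenesis, had 43.3 points, and Igfbp4, which binds insulin-like growth factors, had 43.4 points, in the deposited table. Alg1, Pus7 and Rnf166 each had 43.4 points at their promoters in the authors' deposited table. Malat1, a nuclear noncoding RNA gene, stood above this cluster at 45.4 points in the deposited table.

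Over the whole list, the 303 regions lower by 10 points or more had a median width of 2 bases, and 150 of them were 1 base wide. Of these regions, 174 lay within 1 kb of a gene start, and the largest of them are named next. In the authors' deposited table, Ctbp1, a corepressor gene, had -45.7 points, Wnt6, a secreted Wnt ligand, -45.2 points, and Pkdcc, a secreted protein kinase, -43.6 points. The scaffold gene Anks1b had -43.3 points and Kat2b, a histone acetyltransferase, -41.2 points in the deposited table. Pacsin1, an endocytic adaptor, had -37.1 points, and Pdp1, a phosphatase that activates pyruvate dehydrogenase, had -36.8 points, in the authors' deposited table.

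The smallest p-values went with both large and small differences. The Med16 CpG shown above (chromosome 10, position 79908911) had -49.997 points and the Eif1 region (chr11:100319917-100319935) -43.9 points in the authors' deposited table. Both carried the smallest p of the list, a value at the floor of double-precision numbers, as did a region of Bcl7a, a subunit of chromatin remodelling complexes, whose difference was -0.73 points in the deposited table. The other regions named for their p had differences between -2.85 and -1.10 points, at Klc2, Neurod2, 9230110C19Rik, Adss and Akirin1, in the authors' deposited table. The tie among these 3 p-values is a numerical limit and gives them no order. The Med16 and Eif1 regions, on different chromosomes, also shared the same difference of 0.00295 points in the radiation by diet interaction contrast. Whether their values measure methylation or a limit of the computation was not tested.

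Within one promoter, large and small differences alternated over a few bases. Along the Tnpo2 window, the 9 regions had differences of -0.08, 37.99, -0.37, 37.60, -0.42, 37.37, -0.50, 37.14 and -0.48 points in order of position in the authors' deposited table. The size switched at each step, so that regions higher by nearly 38 points stood between regions lower by under 1 point. The sign switched too, but listed neighbours of the same sign were never closer than 100 bases, and these regions lie closer. Their switch of sign is therefore not a result. The switch of size is not independent of it, since 1536 of the 2159 lower regions of the list differed by under 1 point. In the sequences above, the capitals of the first line fall between those of the second.

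The same alternation was present in stretches of other genes with many regions. Nrbp1, a pseudokinase gene, had 10 regions, and Elmsan1, Lincppara and Slc9a8 had 9 each. Bcor had the most, 12, but they were spread from position 12006312 to 12160168 of chromosome X and did not alternate throughout. Bcor regions with 38.4 and 38.2 points followed each other in the authors' deposited table. At Nrbp1, 3 regions with 38.13, 37.90 and 37.92 points were separated by regions with -0.51 and -0.71 points in the authors' deposited table. Slc9a8, a sodium-proton exchanger gene, had 34.2, 34.96 and 35.7 points at 3 regions with regions of -1.004 and -0.994 points between them, and -26.6 points at 1 CpG nearer its start, in the deposited table. The pattern was turned round at Ctbp1, where 2 regions with -45.73 and -45.65 points enclosed a CpG with 0.28 points in the authors' deposited table. Kat2b likewise had -41.2 points at 1 CpG (position 53567476), close to a region with 0.20 points that ended at position 53567468, in the deposited table. Its other region, further off, had 0.26 points.

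Across the list, 1430 pairs of neighbouring regions lay within 200 bases of each other, and 1138 of them (79.6%) had opposite signs. Neighbours of one sign were never closer than 100 bases, while neighbours of opposite sign could touch, so closely spaced CpGs of one sign do not appear as separate rows. The share of opposite signs depends on this and is not a result about the cells. In 508 pairs a region higher by 36 to 39 points stood next to a region under 1 point, with a median gap of 17 bases. In these pairs the medians were 38.1 points and -0.18 points. The region under 1 point was lower in group 1 in 435, which depends on the same spacing and is not a result. Of the 2159 lower regions of the whole list, 1536 differed by under 1 point. A close neighbour of opposite sign was therefore likely to be small, and the switch of size is not independent of the switch of sign. Whether these switches of size belong to the cells or to the processing of the reads was not tested.

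**Figure D3:**
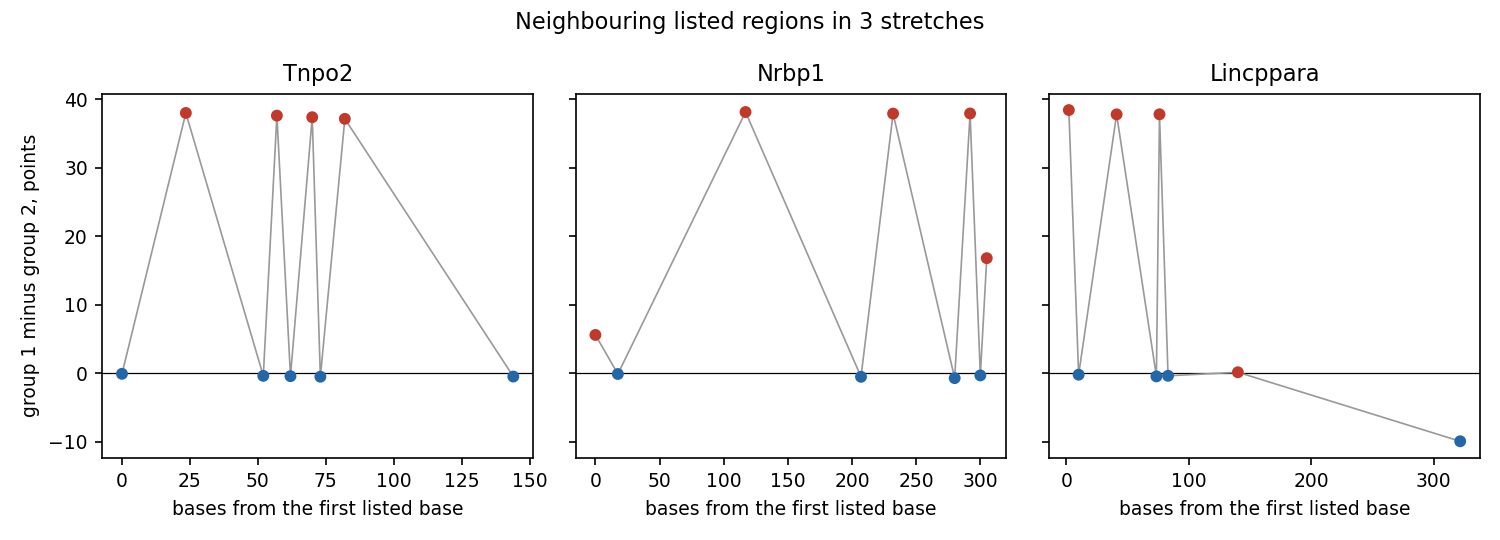
Difference, group 1 minus group 2, in percentage points (y axis) at neighbouring listed regions of Tnpo2, Nrbp1 and Lincppara, by distance in bases from the first listed base (x axis), within 400 bases, with positive values in red and negative ones in blue. At Tnpo2 the points alternate between about 37 to 38 points and just under 0; Lincppara has 1 region at -9.92 points at its right end.

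Place in the genome went with the size of the difference. Within 1 kb of a gene start lay 91.6% of the regions under 1 point and 92.3% of those in the narrow range, against 62.8% of the other regions higher by 10 points or more and 57.4% of those lower by 10 points or more. Of the regions lower by 10 points or more, 17.5% were distal intergenic, 8.58% lay in introns and 7.26% in exons. Group 1 was higher in 61.9% of regions within 1 kb of a start, in 53.4% of distal intergenic regions, in 49.3% of intron regions and in 43.7% of exon regions. By chromosome the share ran from 54.7% on chromosome 9 to 64.3% on chromosome 19. Chromosome X had 56.3% higher and the highest share of regions in the narrow range, 22.5%.

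**Figure D4:**
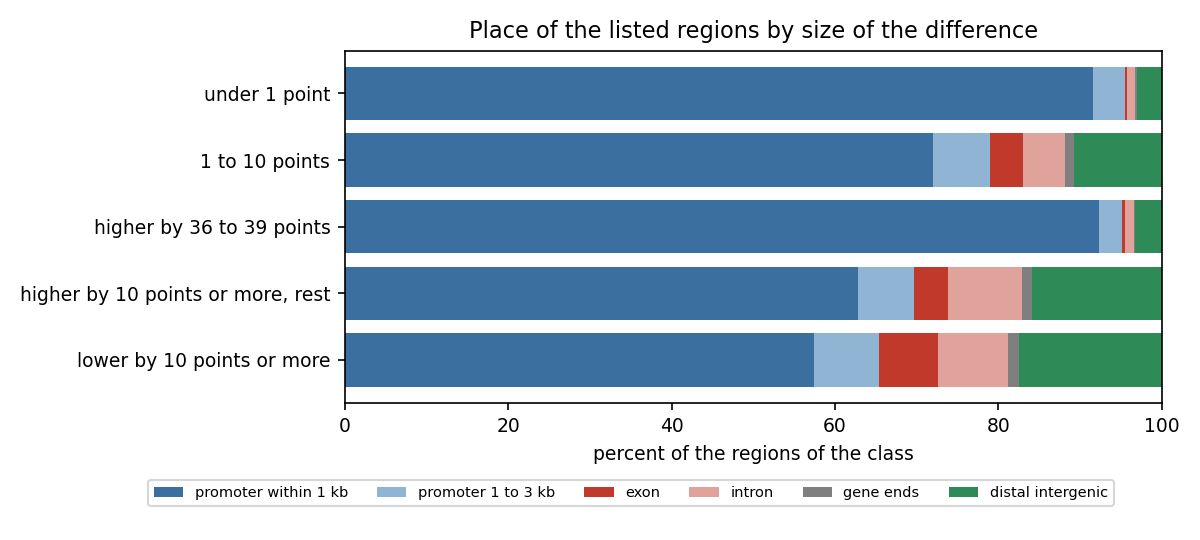
Share of the regions of each size class (x axis, percent) by the place the authors' annotation gives, with 1 bar per class. Promoters within 1 kb make up 91.6% of the regions under 1 point and 92.3% of those higher by 36 to 39 points, and 57.4% of those lower by 10 points or more.

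RefSeq promoter windows, which run from 250 bases before to 50 bases after a gene start, overlapped 1520 of the listed regions, in 1465 of 32851 windows. Each of the 2778 region ends inside a window fell on a CpG. Windows with a listed region had a median of 28 CpGs, against 7 over all windows of the table, and 66.7% GC against 52.7%. The MspI site CCGG was present in 99.2% of windows with a region and 52.8% of all windows. The GC box letters GGGCGG, searched on both strands, were present in 78.1% of windows with a region and 35.7% of all windows. TATAAA was present in 4.37% of windows with a region and 13.6% of all windows, and matches may overlap each other. Because the protocol reads MspI fragments, these contrasts with all windows cannot set listed promoters apart from other covered promoters. Covered windows without a listed region were not compared. Windows with a region in the narrow range had a median of 27 CpGs, windows with a region under 1 point 28 and windows with a region lower by 10 points or more 29, so CpG number hardly separated the classes.

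Counted over gene lists, the regions of most lists were small in difference, as was the whole list with its median of 0.165 points and 60.7% of regions higher. The genes named from a list are those with its largest differences, each at its largest region, and they do not stand for the list. What share of all covered genes has a listed region was not tested, so no list is said to have many or few. For adipogenic and preadipocyte regulators, 16 of 46 genes had 22 regions, 14 higher and 8 lower, with a median difference of 0.33 points. Beside Dlk1 and Creb1, the largest were Egr2, an early activator of adipogenesis, at 38.2 points and Nr3c1, the glucocorticoid receptor, also at 38.2 points in the authors' deposited table. The mature adipocyte and lipid list had 6 of 37 genes with 11 regions, 8 higher and 3 lower, and a median of 0.20 points. There Abhd5, a coactivator of the triglyceride lipase Pnpla2, had 23.7 points, while Pnpla2 itself had -0.55 points, in the authors' deposited table.

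For insulin signalling and glucose use, 17 of 44 genes had 24 regions, 15 higher and 9 lower, with a median of 0.19 points. Irs1, the main docking protein of the insulin receptor, had 37.6 points, Igf1r, the receptor for insulin-like growth factor, 38.1 points, and Foxo3, a transcription factor restrained by insulin, 38.9 points in the authors' deposited table. All 3 lay in the narrow range. Grb10, an adaptor of the insulin receptor encoded by an imprinted gene, had -28.5 points in its promoter (chr11:12025820-12025882) with a median p of 2.00e-06 in the deposited table. It was the largest lower value among the imprinted genes after Ube3a.

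Of the radiation response genes, the damage checkpoint list had 12 of 38 genes with 17 regions, 11 higher and 6 lower, and a median of 0.27 points. The DNA repair list had 12 of 56 genes with 15 regions, 13 higher and 2 lower, and a median of 1.45 points. Of the 15 regions, 4 lay in the narrow range, which held 17.7% of all listed regions. In the authors' deposited table, Exo1, an exonuclease of mismatch repair, had 38.1 points, the Fanconi pathway gene Fanca 38.3 points, the recombination gene Rad52 38.1 points and Trp53bp1, a factor at double-strand breaks, 38.4 points. Among checkpoint genes, Cdkn2b, an inhibitor of cyclin-dependent kinases, had 38.1 points, Sesn2, a stress-induced regulator of mTOR, 37.9 points and Aen, a nuclease induced by p53, 32.5 points in the deposited table. Gadd45a, a damage-induced gene, had -22.0 points at 1 CpG and 0.46 points at a second region in the authors' deposited table.

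The histone modifier list had 38 of 91 genes with 93 regions, 50 higher and 43 lower, and 20 of its regions lay in the narrow range, which held 17.7% of all listed regions. The DNA methylation machinery list had 11 of 26 genes with 25 regions, 16 higher and 9 lower, and the Mediator list had 8 of 16 genes with 19 regions, 12 higher and 7 lower. Their medians were 0.17, 0.12 and 0.14 points in that order. In the authors' deposited table, the maintenance methyltransferase Dnmt1 had 37.7 points, the insulator protein Ctcf and the glycosylase Mbd4 37.9 points each, and the polycomb subunit Ring1 38.4 points. At their largest regions the Mediator subunits Med12 and Med25 had 38.4 and 38.1 points, and Med13l had 38.3 points at a distal region -46564 bases from its start, in the deposited table. Of the 19 Mediator regions, 12 differed by under 1 point, as did 58.6% of all listed regions.

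Wnt and Notch signalling had 19 of 71 genes with 30 regions, 17 higher and 13 lower, and a median of 0.08 points. The ligand gene Wnt2b and the signal transducer gene Dvl1 had 38.2 points each, opposite in sign to Wnt6, in the authors' deposited table. Developmental transcription factors outside Hox had 17 of 121 genes with 20 regions, 10 higher and 10 lower, and a median of 0.02 points. Among them Hand2, a regulator of heart and limb development, had 43.2 points and the hindlimb homeobox gene Pitx1 37.95 points at a distal CpG in the authors' deposited table. Hox genes had 1 of 42 genes listed, with 0.23 points at a region between 2 and 3 kb from Hoxb7 in the deposited table. Imprinted genes had 7 of 52 genes with 8 regions, 4 higher and 4 lower, and a median of 0.08 points, and Rasgrf1 had 33.8 points in the authors' deposited table. Protocadherin genes had 2 of 66 genes, both lower, with Pcdh8 at -4.23 points in the deposited table.

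Among markers of the cell types that the fraction can hold, macrophage and leukocyte markers had 2 of 52 genes with 3 regions, 2 higher and 1 lower, and none reached 10 points. Endothelial markers had 2 of 25 genes with 5 regions, 4 higher and 1 lower, among them Prox1, the regulator of lymphatic endothelium, at 39.2 points in the authors' deposited table. Perivascular markers had 1 of 12 genes, Kcnj8, at 0.37 points in the deposited table. Fibroblast, mesothelial and matrix genes had 7 of 49 genes with 12 regions, 6 higher and 6 lower. The 4 of these genes with the largest differences were Timp2, an inhibitor of matrix proteases, at 37.7 points, Fbn1, the microfibril protein fibrillin, at 37.6 points, Hspg2, the basement membrane proteoglycan perlecan, at 24.0 points and Col6a1, a collagen chain, at 12.1 points in the authors' deposited table, and 1 of the 6 lower regions reached 10 points. Skeletal muscle markers had 1 of 23 genes, Tnnc2, at -10.2 points in the deposited table. Inflammation and cytokine genes had 6 of 52 genes with 7 regions, 6 higher and 1 lower, with Nfkbia, an inhibitor of NF-kappaB, at 38.2 points, the NF-kappaB subunit gene Relb at 37.5 points and Cxcl12, a stromal chemokine, at 3.12 points in the authors' deposited table. Methylation at a marker gene gives no cell number, and the part of a shift in cell types in any of these values was not tested.

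The diet and interaction contrasts of the same fraction rest on the same 24 libraries, so their differences are set side by side and no overlap is taken as a result. At most shared regions the group 1 levels equalled those of the diet and interaction contrasts. Group 1 may thus be a common baseline of these contrasts, which the table does not state. Near-equal values in different contrasts therefore need not be separate measurements. For 704 regions of the narrow range that the diet table held with the same coordinates, the median difference was 38.05 points for radiation and 38.03 points for diet. For 1985 regions under 1 point in the radiation table, the median was 0.0548 points for radiation and -15.6 points for diet. For 63 regions lower by 10 points or more, the median was -21.4 points for radiation and 0.49 points for diet. At 94 regions of the narrow range also in the interaction table, the median was 38.3 points for radiation and -56.4 points for the interaction. At Wnt6 the difference was -45.2 points for radiation and 0.48 points for diet, and at Malat1 it was 45.4 points for radiation and 45.5 points for diet in the authors' deposited tables.

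Of the regions with group 1 higher by 20 to 50 points, 861 of 1268 lay between 37 and 39 points in the radiation table and 1054 of 1908 in the diet table. At Tnpo2 the 4 regions of the narrow range had 37.4 to 38.1 points for diet in the authors' deposited table.

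Satellite cells of muscle, which regenerate muscle fibres, came from other libraries, and 9827 regions were listed for their radiation contrast. A base was shared with them by 1332 regions of the stromal vascular fraction (24.2%) and by 1538 of the satellite cells (15.7%). Of the 1685 overlapping pairs, 567 had group 1 higher in both tables, 303 had group 1 lower in both, 541 had it higher in the stromal vascular fraction alone and 274 in satellite cells alone. Over all listed regions, group 1 was higher in 60.7% in the stromal vascular fraction and in 48.1% in satellite cells. The pair counts were not compared with what such shares alone would give, so they are not read as agreement. Whether group 1 is the same side in both tables is not stated. By size class, the share of stromal vascular regions that overlapped was 30.1% in the narrow range and 26.7% under 1 point. It was 15.5% among regions lower by 10 points or more, 14.2% among the other regions higher by 10 points or more and 12.7% between 1 and 10 points. Median widths of these classes were 47, 49, 2, 25 and 20 bases in that order, and a wider region can share a base more easily. Their shares within 1 kb of a start were 92.3%, 91.6%, 57.4%, 62.8% and 72.0%. The part of width and place in the overlap was not tested.

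At single regions, the satellite cell differences were sometimes alike and sometimes opposite. Serinc5, a gene of lipid handling in membranes, had a region with the same coordinates in both cell types, with 39.9 points in the stromal vascular fraction and 34.2 points in satellite cells in the authors' deposited tables. At Dnmt1, also with the same coordinates, the values were 37.7 points in the stromal vascular fraction and -34.1 points in satellite cells in the deposited tables. At overlapping regions with other ends, Malat1 had 45.4 points in the stromal vascular fraction and 14.8 points in satellite cells, and Pus7, a pseudouridine synthase gene, had 43.4 points in the stromal vascular fraction and -1.998 points in satellite cells in the authors' deposited tables. Chd7 had 38.5 points in the stromal vascular fraction, over 2 satellite cell regions with 30.0 and 34.5 points in the deposited tables.

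Satellite cells had a narrow range too, at another size and on both sides. Between 33 and 35 points lay 1084 of their 2180 regions with group 1 higher by 20 to 50 points, and 1173 of their 2436 regions with group 1 lower by as much. In the stromal vascular fraction, the same span held 55 of 1268 higher and 8 of 140 lower regions. The span from 37 to 39 points held 19 higher and 17 lower regions in satellite cells.

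RNA was measured in satellite cells, where 827 genes had an adjusted p under 0.05 for irradiation over both diets in the authors' deposited table. Of these, 169 (20.4%) had a listed region in the stromal vascular fraction, which is 5.10% of its 3311 symbols. What share of all genes measured by both methods has a listed region is not known here. The count is therefore not read as many or few. RNA values are given as the mean log2 fold change of the 2 diets, which is the deposited value divided by 2. Dlk1 RNA stood at 1.86 on this scale (adjusted p = 1.63e-05), and its distal region in the stromal vascular fraction differed by 39.8 points in the authors' deposited tables. Axin2 RNA had 1.05 (adjusted p = 0.0323) and a region difference of 39.1 points in the authors' deposited tables. In satellite cells, where the RNA was measured, a radiation region sharing a base with this Axin2 region had the opposite sign, -15.7 points. Tmem189, which encodes a plasmalogen synthesis enzyme, had RNA at -0.47 (adjusted p = 0.0103) and a region difference of 38.4 points in the authors' deposited tables. Btg1, Asap1, Smarcd1, B3glct and Zc3hav1l had RNA values between 0.34 and 0.52 and region differences between 38.4 and 43.3 points in the authors' deposited tables. The 8 regions were chosen for their size and lie in or just above the narrow range, and RNA and methylation come from different cells.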

How the data were processed

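Libraries were made from genomic DNA digested with MspI and treated with bisulfite, per the labels' protocols. Per the submitters' processing notes, Trim Galore 0.4.0, cutadapt 1.8.3, Bismark 0.14.4, Bowtie2 2.2.6 and CASAVA 1.8.2 were used with build mm10. No source used here names the settings, the coverage minimum or the tool that formed and tested regions.

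Per the file headers, the authors deposited for each region 2 medians over its sites, that of the p-value and that of the difference of methylation fractions, multiplied by 100 here to give points. No header says that the p-values are adjusted. The 12 columns of group levels in the 6 bisulfite tables were inspected to read the sign of the difference. Group 1 levels were also compared across the contrasts of the stromal vascular fraction. The columns were otherwise not used, because the samples behind group 1 and group 2 are not named. The RNA tables hold the authors' log2 fold changes and adjusted p-values, per the file headers. For 13 genes in all 3 irradiation tables, the value over both diets equalled the sum of the values on each diet within 3.11e-15, so it was divided by 2.

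With comparison tables only, regions were counted and described with Python 3.11.15, pandas 2.3.3 and numpy 2.4.6, without a test. The counting steps were tested on simulated data. Overlap meant at least 1 shared base. Sequences are from RefSeq, build GRCm38.p6. Named regions were the 15 largest differences per direction, the 6 smallest p-values, up to 4 per gene list over 19 lists, the 5 symbols with most regions, up to 8 shared with satellite cells or with the RNA table and the largest per annotation class. Size classes, the 20 largest per side outside promoters within 1 kb and the full account of Tnpo2, Ctbp1, Kat2b and Gadd45a were added after the values were seen. A few regions that these rules name are not reported here. The members and lists were chosen with earlier results of these data known.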

Additional observations from a re-analysis of the deposited data

How the results depend on the processing

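The share of regions higher in group 1, 60.7% as reported, was 68.1% with 1 region per gene symbol, 78.8% at an absolute difference of at least 5 points, 82.0% at 10 points and 74.1% at a median p under 1e-05. It was 53.4% outside promoters within 1 kb and 52.2% without the regions higher by 36 to 39 points, both chosen after seeing the data. The latter share is lower by construction, because only higher regions were taken out. The share higher in group 1 was 61.9% at a p under 0.001 and 60.9% without chromosomes X and Y. The share within 1 kb of a start, 85.6%, was 75.4% at a difference of at least 5 points. The share overlapping a satellite cell region, 24.2%, was 8.94% where at least 50% of both regions had to be shared and 23.8% at a p under 0.001 in both tables. The cause of these shifts was not tested. The planned classes by methylation level and the difference recomputed from the levels were not run, because the samples behind the group levels are not named. Beyond the sign and the comparison of group 1 across contrasts, the levels were left out. No paired analysis was possible because the tables hold no values of single samples, and for the same reason no replicate could be left out. Depth is unknown, so the precision of differences under 1 point cannot be given.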
